A study of Mus musculus with 27 samples.

Results

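Poly(A) RNA of Runx1KO cells was compared with that of parental control cells in 3 libraries per group, across pathways and gene families. The genes described were those with an abundance of at least 1 TPM (transcripts scaled to gene length and library total) in 3 or more of the 6 libraries, which left 13067 of the 24953 genes in the deposited table. Both groups were mK4 cells, a mouse line derived from metanephric mesenchyme, the embryonic tissue from which the nephron and the kidney stroma arise. Control cells were unedited mK4 cells. In Runx1KO cells, Cas9 with a pair of guide RNAs had removed exon 3 of Runx1, and edited cells were picked as clones. How many clones the 3 Runx1KO libraries represent is not given, so what belongs to a clone and what belongs to the deletion cannot be told apart. All cells were grown to or near confluency in medium with 10% fetal bovine serum. Another line, ZebDKO, is mK4 without Zeb1 and Zeb2, a pair of repressors of epithelial genes, and its 3 libraries in the same table are given where they show what differs in Runx1KO cells. The study describes the 3 libraries of a group as biological triplicates, cultured separately, so p-values measure the spread between cultures of these lines.

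Runx1 is a Runt-domain transcription factor that binds DNA together with the partner protein Cbfb, and it can activate or repress the genes it binds, depending on its cofactors. It is best known for its part in the formation of blood stem cells and in leukaemia, and it is also expressed in many epithelia. In the developing kidney the metanephric mesenchyme keeps a pool of progenitors under Wnt, FGF, BMP and GDNF signals, and part of it turns into epithelium while the rest becomes stroma rich in extracellular matrix.

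The pair of guides that defines the knockout is shown with the position of each target in mm9. They were taken from the oligonucleotides of the study, the capitals mark the PAM read from the genome, and both lie on the plus strand while Runx1 is transcribed from the minus strand.
Runx1 gRNA 1: cacaacaagccgattgagtaAGG
Runx1 gRNA 2: aggagtaccttgaaagcgatGGG
gRNA 1 matched chr16:92695999-92696018, in the intron before exon 3 of the annotated transcripts that begin farther upstream. In some other annotated transcripts the same site lies inside a longer exon 1 (chr16:92695729-92697573). gRNA 2 matched chr16:92695721-92695740, across the downstream end of exon 3 (chr16:92695729-92695982). Runx1 itself was measured at 18.7, 15.6 and 17.9 TPM in control and 30.3, 30.1 and 28.5 TPM in Runx1KO libraries (log2 fold change 0.74, SE 0.068, adjusted p = 6.72e-05, by limma with Benjamini-Hochberg adjustment over all genes tested). Every Runx1KO library was above every control library, but the groups did not overlap for 73.7% of all tested genes. The deposited value is summed over the whole gene (chr16:92601712-92826311), and with only the stretch between the guides removed it does not check the labels. Tested genes of chromosome 16 as a whole were shifted up in Runx1KO cells, with a median log2 fold change of 0.32. Runx2, the other Runt factor of these cells, was measured at 6, 4.9 and 5.5 TPM in control and 3.9, 3.7 and 3.6 TPM in Runx1KO libraries (log2 fold change -0.45, SE 0.078, adjusted p = 0.00175), which is under the 2-fold limit used here. Cbfb was at 83, 75.5 and 76.1 TPM in control and 73.3, 71.4 and 74.3 TPM in Runx1KO libraries (log2 fold change -0.10, SE 0.043, adjusted p = 0.0794). Runx3 did not pass the filter, at 0.3, 0.1 and 0.2 TPM in control and 0 TPM in all Runx1KO libraries.

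A gene is called higher or lower where its mean of log2(TPM + 1) differed by more than 1 between the groups, which is a 2-fold difference for a well expressed gene and a larger one for a low gene, at an adjusted p under 0.05. In Runx1KO cells 1033 genes were higher (7.91% of the 13067 tested) and 666 were lower (5.10%), which makes 1699 called genes (13.0%), and 402 and 237 of them passed 4-fold. The control and Runx1KO libraries were of like composition, with 12541 to 12695 genes at 1 TPM or more. The within-group Pearson r of log2(TPM + 1) was 0.994 to 0.995 across genes, while pairs of a control and a Runx1KO library reached 0.905 to 0.907. With so little spread, 9216 genes passed an adjusted p of 0.05 at any size, and the 3 libraries of one group lay wholly above the other for 9630 genes (73.7%), so libraries that do not overlap carry little information on a single gene here. Among the 1699 called genes, 1689 had libraries that did not overlap. Genes under 1 TPM in all libraries of one group passed the filter only through the other group, where they are high. The shares of rises and falls in a gene list therefore depend in part on the filter. Of the called genes, 62 that rose were at 0 in all control libraries and 60 that fell were at 0 in all Runx1KO libraries. The table holds TPM without counts, so the depth of each library is not known from it, and the study's methods give only a minimum number of reads per sample. Over all tested genes the median log2 fold change was -0.06, the level against which the medians of gene groups are read. For genes given by the means of each group, the number in brackets is the log2 fold change, and each such gene said to rise, fall or go from one mean to another passed the call unless the sentence says otherwise.

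The largest falls, among called genes with a mean of at least 20 TPM in control, joined genes of signalling, matrix and cell surface. Tmsb4x, which encodes the actin monomer-binding peptide thymosin beta-4, was measured at 111.8, 134.4 and 128.7 TPM in control and 0.3, 0 and 0 TPM in Runx1KO libraries (log2 fold change -6.85, SE 0.12, adjusted p = 2.12e-08). Emb, encoding the cell surface glycoprotein embigin that escorts monocarboxylate transporters, was at 83.7, 80.6 and 85.8 TPM in control and 0.1, 0 and 0.1 TPM in Runx1KO libraries (log2 fold change -6.31, SE 0.059, adjusted p = 2.26e-09). Gxylt2, whose product adds xylose to O-glucose on the EGF repeats of Notch receptors, was at 57.6, 53.2 and 55.8 TPM in control and 0.3, 0.2 and 0 TPM in Runx1KO libraries (log2 fold change -5.61, SE 0.10, adjusted p = 2.22e-08). For each of the 3 genes the Runx1KO libraries were at or close to 0 and far below all control libraries, while ZebDKO cells held 641.9, 642 and 635.9 TPM of Tmsb4x, 74.6, 77.6 and 70.4 TPM of Emb and 54, 55.9 and 52.6 TPM of Gxylt2. Osr1, Igfbp4, Inhbb, Tnc, Sulf2, Col6a2, H1fx, Nog and Nkx2-5 also fell in Runx1KO cells, by log2 fold changes of -5.59 to -4.75. B3galnt1, the globoside synthase, Ms4a4d and Mrc2, a collagen uptake receptor, were listed at 0 TPM in every Runx1KO library. Their control libraries held 34.8, 35.7 and 35.9 TPM of B3galnt1, 29.4, 29.1 and 27.4 TPM of Ms4a4d and 27.3, 26.9 and 28.7 TPM of Mrc2. ZebDKO cells were also far below control cells for many of the 15 genes, with means of 0.1 TPM of Mrc2, 1.93 TPM of B3galnt1, 2.77 TPM of Ms4a4d, 4.53 TPM of Inhbb, 4.53 TPM of Nkx2-5, 6.23 TPM of Sulf2 and 6.53 TPM of H1fx, whereas Igfbp4, at 61.4 TPM, and Tnc, at 100.2 TPM, were near their control means of 65.8 and 86.7 TPM.

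Among the 15 largest rises were epithelial, sugar-handling and adaptor genes. Krt8, the simple epithelial keratin, was at 1.8, 1.9 and 3.6 TPM in control and 2302.3, 2393.5 and 2362.3 TPM in Runx1KO libraries, and Cldn4, a tight junction claudin, was at 0, 0 and 0.4 TPM in control and 233.8, 223.8 and 237.2 TPM in Runx1KO libraries. Grb7, an adaptor of receptor tyrosine kinases, was at 0.8, 0.8 and 0.8 TPM in control and 251.5, 264.1 and 257.9 TPM in Runx1KO libraries (log2 fold change 7.17, SE 0.036, adjusted p = 2.81e-10). Eps8l2, an actin regulator of the Eps8 family, was at 0.6, 0.4 and 0.5 TPM in control and 235, 237.5 and 232.9 TPM in Runx1KO libraries (log2 fold change 7.30, SE 0.055, adjusted p = 1.31e-09). In all 4 of these genes the control libraries stayed below 4 TPM and the Runx1KO libraries above 200 TPM. Mal, a membrane protein of apical transport, Slc2a3, the glucose transporter GLUT3, B3gnt3, a glycosyltransferase, Capsl, Bst1, a GPI-anchored ADP-ribosyl cyclase, and Psca, a GPI-anchored protein of the Ly6 family, rose by log2 fold changes of 6.14 to 7.25. Unc13d, which serves granule exocytosis, A630095E13Rik, the tektin gene Tekt5, Krt19 and the carbonic anhydrase gene Car9 rose by 5.72 to 5.86. ZebDKO libraries were far lower for some of these genes, and they lay above the Runx1KO libraries for Eps8l2 and A630095E13Rik, in both by less than the 2-fold limit. Slc2a3 was at 94.9, 95.4 and 88.5 TPM in Runx1KO and 2.9, 2.9 and 2.9 TPM in ZebDKO libraries (Runx1KO minus ZebDKO log2 fold change 4.59, SE 0.044, adjusted p = 7.91e-09), Tekt5 at 60.4, 59.7 and 59 TPM and 2.7, 2.3 and 2.3 TPM (log2 fold change 4.15, SE 0.057, adjusted p = 1.39e-08), and A630095E13Rik at 58.6, 66.3 and 57.8 TPM and 86.5, 92.5 and 85 TPM (log2 fold change -0.53, SE 0.060, adjusted p = 1.15e-04).

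**Figure D1:**
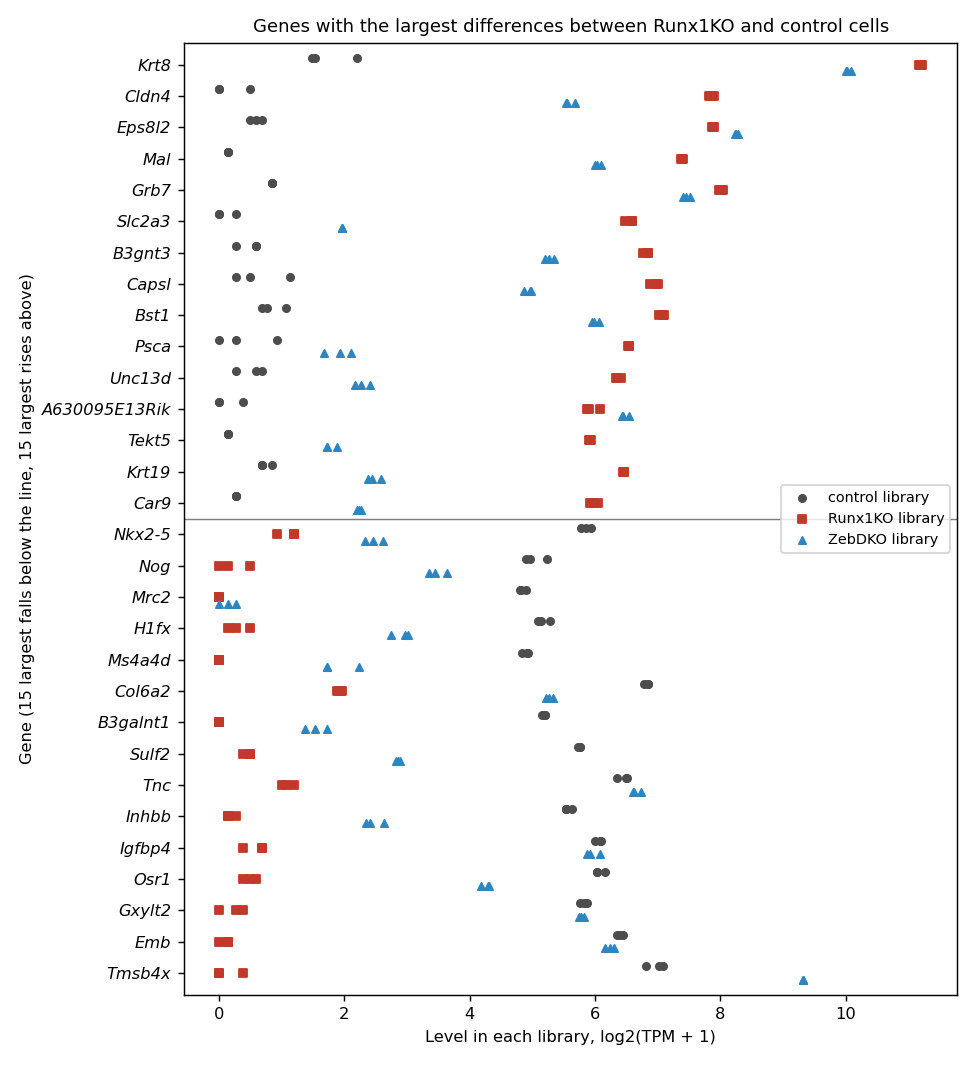
Level of the 15 genes with the largest falls and the 15 with the largest rises in Runx1KO against control cells, as log2(TPM + 1) on the x axis, with 1 point per library and 3 libraries per group (circles control, squares Runx1KO, triangles ZebDKO). The Runx1KO libraries of Tmsb4x and Emb lie near 0 while the ZebDKO libraries lie above the control libraries for Tmsb4x and just below them for Emb, and A630095E13Rik and Eps8l2 are the rises in which ZebDKO libraries lie above the Runx1KO libraries.

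Of the 15 largest falls, 4 genes had a Runx1 ChIP-seq peak within 50 kb of the gene start that overlapped a less accessible region. These are regions that the study listed as less accessible by ATAC-seq in Runx1KO cells. Among these 4 peaks, 3 hold the core Runt motif TGTGGT or its reverse complement ACCACA. They are printed from mm9, plus strand, with the motif in capitals. The stretch printed, named region below, is up to 300 bases at the centre of the peak that lie in no annotated exon.
Gxylt2 region, chr6:100657669-100657917: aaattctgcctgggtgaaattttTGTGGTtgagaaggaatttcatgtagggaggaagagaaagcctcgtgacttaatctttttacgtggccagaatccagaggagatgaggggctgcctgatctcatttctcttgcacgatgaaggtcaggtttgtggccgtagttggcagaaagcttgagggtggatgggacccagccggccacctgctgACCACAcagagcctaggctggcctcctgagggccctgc
Igfbp4 region, chr11:98938154-98938453: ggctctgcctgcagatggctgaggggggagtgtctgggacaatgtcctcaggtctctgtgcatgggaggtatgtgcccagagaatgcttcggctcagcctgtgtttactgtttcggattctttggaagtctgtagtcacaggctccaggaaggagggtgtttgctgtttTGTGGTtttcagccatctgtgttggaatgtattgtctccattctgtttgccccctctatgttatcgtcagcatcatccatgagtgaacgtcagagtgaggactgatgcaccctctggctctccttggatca
Col6a2 region, chr10:76131754-76131987: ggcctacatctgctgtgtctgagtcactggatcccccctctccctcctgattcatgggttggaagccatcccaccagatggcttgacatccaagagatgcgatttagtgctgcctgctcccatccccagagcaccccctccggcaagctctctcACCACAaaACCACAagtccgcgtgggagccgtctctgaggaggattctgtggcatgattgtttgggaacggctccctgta
The Gxylt2 region is intronic, 3065 bases downstream of the gene's start, the Igfbp4 region lies in an intron of the neighbouring gene Tns4, 35745 bases downstream of the Igfbp4 start, and the Col6a2 region lies between genes, at -45495 bases from the start. The peak near Inhbb, between genes, held neither form of the motif in the 196 bases read. The other 11 genes had no such peak in this window. For Osr1 and Tnc, which are among them, the study shows nearby regions bound by Runx1 that lose accessibility in Runx1KO cells. The count therefore holds for this window and the deposited peak list, and does not show that such regions are lacking.

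The promoters of the 3 largest rises are shown because the E-box CAGGTG, the sequence that Zeb and Snail repressors bind, was found in 32.1% of the promoters of genes that rose, 16.4% of those that fell and 17.9% of all 12443 promoters of 9864 tested genes. Promoters were windows of 300 bases in RefSeq on GRCm38.p6, 250 before and 50 after the start, matched by symbol, with motifs counted on both strands. Only the 250 bases before the start are printed, on the strand of the gene, with CAGGTG or CACCTG in capitals.
Krt8 promoter, chr15:102004343-102004592: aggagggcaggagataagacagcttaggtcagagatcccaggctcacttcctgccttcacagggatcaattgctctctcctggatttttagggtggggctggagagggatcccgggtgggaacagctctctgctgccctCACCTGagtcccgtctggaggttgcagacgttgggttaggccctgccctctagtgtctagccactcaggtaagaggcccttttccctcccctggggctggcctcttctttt
Cldn4 promoter, chr5:134946935-134947184: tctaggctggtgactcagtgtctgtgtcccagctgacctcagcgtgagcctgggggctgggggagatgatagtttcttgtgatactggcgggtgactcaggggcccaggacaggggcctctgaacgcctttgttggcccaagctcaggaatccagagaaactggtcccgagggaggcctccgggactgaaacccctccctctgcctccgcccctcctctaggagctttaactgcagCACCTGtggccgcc
Eps8l2 promoter, chr7:141338752-141339001: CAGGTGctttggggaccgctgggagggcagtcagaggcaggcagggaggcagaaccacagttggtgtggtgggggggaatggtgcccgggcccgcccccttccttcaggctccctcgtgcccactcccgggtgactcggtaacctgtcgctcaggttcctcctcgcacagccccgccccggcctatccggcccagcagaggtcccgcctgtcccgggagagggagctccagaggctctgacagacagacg
Each of the 3 holds the motif once in the stretch shown. Among the 15 largest rises 8 had a promoter in the table, and those of Mal and Capsl held no match in the same 250 bases. The Runt motif TGTGGT was in 15.1% of promoters of genes that rose, 13.4% of those that fell and 12.5% of all, and the AP-1 motif TGACTCA was in 7.48%, 5.97% and 3.73%. Median GC content was 58.7%, 57.7% and 60.7%. A match is a description of the letters and does not show binding.

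Transcription factors of the nephron and its stroma had falls and no rises. Of 33 listed factors 21 were tested, 4 fell and none rose, with a median log2 fold change of -0.44. Osr1, which marks the earliest nephron progenitors, was at 70.9, 64.1 and 64.3 TPM in control and 0.3, 0.5 and 0.4 TPM in Runx1KO libraries (log2 fold change -5.59, SE 0.072, adjusted p = 6.95e-09), and Eya1, a progenitor coactivator, was at 16, 16.6 and 15.9 TPM in control and 5.4, 6.1 and 6.1 TPM in Runx1KO libraries (log2 fold change -1.32, SE 0.058, adjusted p = 1.45e-06). Irx1, a homeobox factor of the tubule, was at 68.9, 64.1 and 64.2 TPM in control and 13.9, 13.7 and 12.9 TPM in Runx1KO libraries (log2 fold change -2.20, SE 0.046, adjusted p = 4.05e-08), and Pou3f3 went from a mean of 3 to 0.0667 TPM. In these 4 genes no Runx1KO library reached the range of the control libraries, which is so for nearly all called genes (1689 of 1699 without overlap). Pax2, needed for the nephron lineage, was at 315.7, 313.7 and 310.2 TPM in control and 478.1, 501 and 430.9 TPM in Runx1KO libraries, a difference under the 2-fold limit. The progenitor factors Six2 and Cited1 and the factor Wt1 were under 1 TPM in all 6 libraries and Hoxd11 was listed at 0, so these markers of metanephric mesenchyme were missing in control cells as well, while Sall1, Foxd1 and Hoxa11 were present in both groups. All 6 tested stromal factors, among them Foxd1, had a negative difference and none was called.

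Among 21 tested Hox genes 3 fell and 1 rose. Hoxc9 went from a mean of 5.67 to 0.1 TPM (log2 fold change -2.60) and Hoxc6 from 3.1 to 0.233 TPM (-1.73), while Hoxb13, listed at 0 in all Runx1KO libraries, was at 6.1, 7.2 and 5.6 TPM in control. Hoxb6 rose from 65 to 156 TPM (1.26) and lies in the stretch of chromosome 11 whose genes were shifted up as a body. With the median of its neighbours taken off its difference was 0.81. Of 30 tested T-box, Gata and other homeobox factors 3 rose and 4 fell. Dlx1, a homeobox factor of the forebrain and limb, rose from 2 to 8.97 TPM (1.74). Nkx2-5, a cardiac factor, was at 53.9, 57.1 and 60.3 TPM in control and 0.9, 1.3 and 1.3 TPM in Runx1KO libraries and Hlx, a mesenchymal factor of gut and liver, from 24.6 to 1.63 TPM (-3.28). Gata6, an endoderm and heart factor, was at 7.9, 7.8 and 7.4 TPM in control and 0, 0.1 and 0 TPM in Runx1KO libraries (log2 fold change -3.07, SE 0.078, adjusted p = 1.04e-07).

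Genes of the Wnt pathway changed in both directions, more often downwards. Of 64 listed genes 37 were tested, of which 13 fell and 7 rose, and the median was 0.02. Several secreted regulators were listed at 0 in every Runx1KO library. Rspo3, an R-spondin that sustains Wnt receptors at the cell surface, was at 19, 17.4 and 17.9 TPM in control, and the secreted frizzled-related inhibitors Sfrp1 and Sfrp2 were at 15.3, 15.3 and 16.7 TPM and 11.1, 8.5 and 11.2 TPM. Ror1, a receptor of noncanonical Wnt ligands, was at 11.9, 11.7 and 10.6 TPM in control and 0.2, 0.2 and 0.2 TPM in Runx1KO libraries (log2 fold change -3.37, SE 0.071, adjusted p = 4.20e-08). Wnt5a, its ligand, and Lef1, a nuclear effector, went from means of 8.67 to 0.0333 TPM (-3.23) and 9 to 0.133 TPM (-3.14), and Axin2, a feedback target of beta-catenin, from 18.3 to 4.07 TPM (-1.93), the last 3 genes being named after their values were seen. In the other direction, Wnt7a was at 0.8, 1.1 and 0.7 TPM in control and 19.5, 17.1 and 16.8 TPM in Runx1KO libraries (log2 fold change 3.34, SE 0.099, adjusted p = 2.19e-07), and Wnt7b, the ligand of the collecting duct stalk, was at 13.2, 13.2 and 13.6 TPM in control and 63.7, 63.4 and 61.8 TPM in Runx1KO libraries (log2 fold change 2.16, SE 0.033, adjusted p = 1.32e-08). The receptor gene Fzd3 rose from 2.3 to 9.7 TPM (1.70) and the nuclear factor Tcf7 from 7.83 to 20.3 TPM (1.27), whose call was lost at 0.96 in a deposited table of 6 libraries made separately. Of 6 nuclear factors and targets 4 fell and Tcf7 alone rose.

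Hedgehog signalling acts through the receptor Ptch1, the membrane protein Smo and the Gli factors, and the coreceptors Gas1, Boc and Cdon help ligand binding. All 3 coreceptors fell. Gas1 was at 72.2, 68.9 and 72.7 TPM in control and 12.8, 10.5 and 11.6 TPM in Runx1KO libraries (log2 fold change -2.52, SE 0.068, adjusted p = 1.43e-07), and Boc and Cdon went from means of 7.5 to 1.4 TPM (-1.83) and 41.3 to 17.2 TPM (-1.22). Gli2, the main activator of the pathway, was at 10, 9.2 and 9.6 TPM in control and 0.1, 0.1 and 0.1 TPM in Runx1KO libraries (log2 fold change -3.27, SE 0.068, adjusted p = 3.99e-08). These made 4 called of 9 tested, and none of the 9 rose. No Hedgehog ligand passed the filter in either group. Ptch1 and Gli1, the direct targets used as readouts of the pathway, were at means of 15.2 to 13.4 TPM (log2 fold change -0.17) and 3.73 to 4.73 TPM (0.28), and neither was called.

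In the Notch pathway 3 of 4 tested ligands rose and the receptors divided. Of 13 tested genes 5 rose and 1 fell, with a median of 0.55. Dll1 was at 0.8, 0.3 and 0.9 TPM in control and 21.4, 19.7 and 20.3 TPM in Runx1KO libraries (log2 fold change 3.71, SE 0.14, adjusted p = 7.56e-07), and Jag2 at 0.7, 1 and 0.6 TPM in control and 3.3, 4.2 and 4.1 TPM in Runx1KO libraries (log2 fold change 1.46, SE 0.12, adjusted p = 3.61e-05). Nrarp, a target and feedback inhibitor of Notch, rose from 4.53 to 12.4 TPM (1.28). Notch4 rose from 0.367 to 2.77 TPM (1.46) while Notch3 fell from 2.6 to 0.5 TPM (-1.27), a call that was lost in the 6-library table, where its log2 fold change was -0.85. Notch1 was at 34.1, 29.4 and 35.2 TPM in control and 16.8, 17.4 and 15.5 TPM in Runx1KO libraries, with a log2 fold change of -0.95 that stayed just inside the limit, and the target Hes1 was at 313.4, 278.8 and 324 TPM in control and 396.7, 390.5 and 427.4 TPM in Runx1KO libraries (0.41). Jag2 lies at the distal end of chromosome 12, where neighbouring genes were also shifted up. With the median of its neighbours taken off its log2 fold change was 0.43.

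Genes of the TGF-beta family and its pathway changed in both directions. Of 44 tested genes 8 fell and 4 rose. Inhbb, the beta-B subunit of activin and inhibin, was at 48.9, 45.6 and 45.4 TPM in control and 0.2, 0.1 and 0.1 TPM in Runx1KO libraries (log2 fold change -5.39, SE 0.063, adjusted p = 4.74e-09), and the BMP antagonist Nog was at 36.7, 30.2 and 28.8 TPM in control and 0.1, 0 and 0.4 TPM in Runx1KO libraries (log2 fold change -4.82, SE 0.14, adjusted p = 2.28e-07). Both had Runx1KO libraries below 1 TPM. Tgfb2 fell from 17 to 2.6 TPM (-2.33) and Id2, a BMP target that blocks bHLH factors, was at 347.5, 320 and 336.3 TPM in control and 74.7, 68.9 and 80 TPM in Runx1KO libraries (log2 fold change -2.15, SE 0.058, adjusted p = 1.43e-07). Gdf15, a stress-induced ligand, was at 15.8, 18.6 and 14.8 TPM in control and 105.5, 94.9 and 109.4 TPM in Runx1KO libraries (log2 fold change 2.59, SE 0.089, adjusted p = 4.25e-07) and Bmp7, which maintains nephron progenitors, was at 6.9, 5.8 and 6.6 TPM in control and 19.2, 19 and 17.5 TPM in Runx1KO libraries (log2 fold change 1.40, SE 0.070, adjusted p = 3.01e-06). Inhba rose from 5.8 to 12.7 TPM (1.02), a call near the limit that was lost without control library 2 or control library 3 (0.985 each), without Runx1KO library 1 (0.99), under quantile normalization (0.97) and in the 6-library table (0.95). Of 10 tested receptors 1 fell and none rose, and of 13 Smads and target genes 2 fell and none rose, shares of 10.0% and 15.4% beside 13.0% over all genes.

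Receptor tyrosine kinase ligands showed opposed groups. Of 43 tested ligands and receptors 11 rose and 9 fell, both above the shares over all genes. Gdnf, the mesenchymal signal that draws the ureteric bud into the kidney, was at 13.1, 11.4 and 13.6 TPM in control and 0.1, 0.1 and 0.1 TPM in Runx1KO libraries (log2 fold change -3.64, SE 0.081, adjusted p = 5.95e-08), and Kitl, the ligand of Kit, was at 17.2, 16 and 18.3 TPM in control and 0.3, 0.3 and 0.3 TPM in Runx1KO libraries (log2 fold change -3.80, SE 0.068, adjusted p = 2.24e-08). Vegfd, a lymphatic growth factor, went from 60.3 to 2.8 TPM (-4.01). Ntrk3, the receptor of neurotrophin-3, was at 16.9, 18.5 and 19.3 TPM in control and 0.1, 0 and 0 TPM in Runx1KO libraries (log2 fold change -4.22, SE 0.078, adjusted p = 2.53e-08). Of 16 tested ligands outside the FGF family 4 rose and 4 fell. The 4 that rose, Areg, Btc, Tgfa and Hbegf, all encode ligands of the EGF receptor, with Areg at 31.8, 35.2 and 25.3 TPM in control and 178.9, 143.2 and 156 TPM in Runx1KO libraries (log2 fold change 2.34, SE 0.13, adjusted p = 4.64e-06) and Btc from 1.07 to 12.3 TPM (2.69). Fgf9, a progenitor survival signal in the kidney, was listed at 0 in all control libraries and at 6.4, 6.2 and 6 TPM in Runx1KO libraries. Of 22 listed FGF ligands 6 were tested, of which 4 rose and 1 fell, and Fgf9 passed the filter through the Runx1KO libraries alone. Csf1r, the receptor of the macrophage growth factor Csf1, was at 0.7, 1 and 0.4 TPM in control and 30.5, 28.8 and 29.7 TPM in Runx1KO libraries (log2 fold change 4.19, SE 0.12, adjusted p = 2.16e-07).

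Genes that MAPK signalling induces and that restrain it were more often higher than lower. Of 20 tested genes 6 rose and none fell, with a median of 0.42. The rises were mostly dual-specificity phosphatases, 5 of 11 with a median of 0.65. Of 6 Sprouty and Spred genes 1 rose, with a median of 0.07 and 3 genes below 0. Dusp6, the phosphatase of ERK, was at 131, 141.9 and 127.2 TPM in control and 376.7, 374.8 and 368.9 TPM in Runx1KO libraries (log2 fold change 1.48, SE 0.042, adjusted p = 1.77e-07), and Dusp5 at 161.7, 145.8 and 160.9 TPM in control and 432.6, 489.5 and 475.7 TPM in Runx1KO libraries (log2 fold change 1.57, SE 0.059, adjusted p = 6.53e-07). Dusp2 and Dusp9 rose from means of 32.3 to 129 TPM (1.97) and 4.67 to 38 TPM (2.80). All 4 had every Runx1KO library above every control library, and libraries of the groups did not overlap in 1689 of the 1699 called genes. The 3 Ets targets Etv1, Etv4 and Etv5 were not called. Immediate early genes moved the same way, with 6 of 25 higher and 1 lower and a median of 0.61. Fos was at 400.1, 412.7 and 421.7 TPM in control and 1467.3, 1548.6 and 1485.1 TPM in Runx1KO libraries (log2 fold change 1.86, SE 0.031, adjusted p = 1.72e-08), Fosb from 215 to 759.6 TPM (1.81), Klf2 from 75.2 to 377 TPM (2.31) and Zfp36, which destabilises cytokine mRNA, from 411 to 1105 TPM (1.43). Egr3 was the only one of the 25 to fall, at 24.1, 21.5 and 26.2 TPM in control and 6.3, 6.9 and 7.4 TPM in Runx1KO libraries (log2 fold change -1.66, SE 0.084, adjusted p = 3.12e-06). The Hippo pathway had 1 called gene of 31, Amot, at 128.2, 105.2 and 128.5 TPM in control and 37.3, 37.9 and 36.1 TPM in Runx1KO libraries (log2 fold change -1.67, SE 0.078, adjusted p = 2.06e-06), and none of its 12 tested target genes was called.

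**Figure D2:**
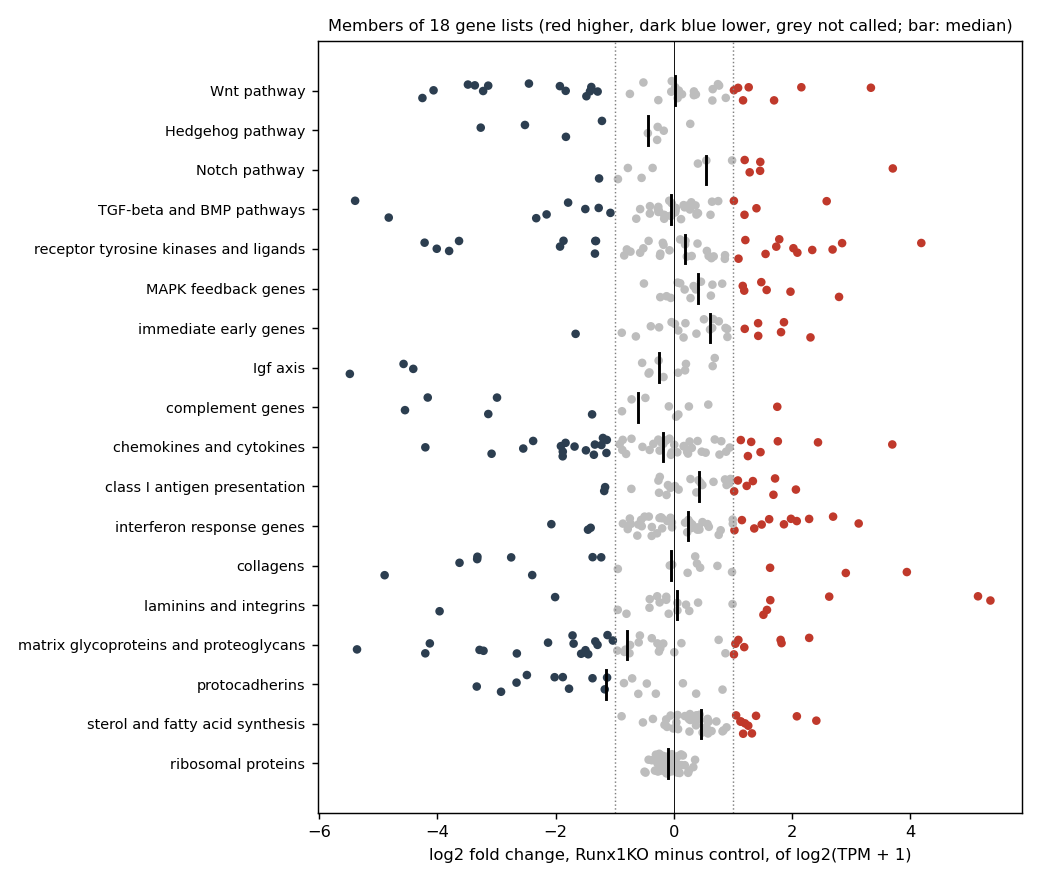
log2 fold change, Runx1KO minus control, of every tested member of 18 gene lists (x axis, on the log2(TPM + 1) scale). Each point is 1 gene, red where called higher, dark blue where called lower and grey where not called, black bars mark the median of the list and dotted lines the 2-fold limits. Protocadherins and matrix genes spread to the left, MAPK feedback and immediate early genes lie to the right, and all 79 ribosomal protein genes stay within the limits.

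Of the carriers of insulin-like growth factors, 3 fell. Igfbp2 was at 413, 409.7 and 414.6 TPM in control and 16.2, 17 and 15.9 TPM in Runx1KO libraries (log2 fold change -4.57, SE 0.032, adjusted p = 1.12e-09) and Igfbp4 at 63.3, 67.4 and 66.7 TPM in control and 0.6, 0.3 and 0.6 TPM in Runx1KO libraries (log2 fold change -5.48, SE 0.090, adjusted p = 1.66e-08), and Igfbp5, listed at 0.1 TPM or less in Runx1KO libraries, was at 21.4, 17.2 and 24.9 TPM in control. These proteins bind Igf1 and Igf2 outside the cell and limit or prolong their action. The other 10 tested genes of the Igf axis were not called, including Igf2 and its receptors. Igfbp2 and Igfbp5 are neighbours on chromosome 1 and belong to a run of adjacent lower genes with Tns1.

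Many matrix genes were lower. Of 40 tested matrix glycoproteins and proteoglycans 17 fell and 7 rose, with a median of -0.79 against -0.06 over all genes. Tnc, the large glycoprotein tenascin C, was at 89.4, 80.8 and 89.8 TPM in control and 1.3, 1.1 and 1 TPM in Runx1KO libraries (log2 fold change -5.36, SE 0.070, adjusted p = 7.10e-09), and Ogn, a small leucine-rich proteoglycan, was at 153, 140 and 156.8 TPM in control and 14.5, 15.7 and 13.2 TPM in Runx1KO libraries (log2 fold change -3.29, SE 0.069, adjusted p = 4.30e-08). Loxl1, which crosslinks elastin, was at 67.5, 65.2 and 64.9 TPM in control and 3, 2.4 and 3.1 TPM in Runx1KO libraries (log2 fold change -4.13, SE 0.075, adjusted p = 2.34e-08). The Runx1KO libraries of all 3 lay far below the control libraries, while ZebDKO cells held 97.6, 106 and 97 TPM of Tnc (Runx1KO minus ZebDKO log2 fold change -5.57, SE 0.066, adjusted p = 8.59e-09), 27, 25.5 and 23 TPM of Ogn and 19.6, 19.7 and 23.7 TPM of Loxl1, so Tnc alone of the 3 was at or above the control level there. Vcan, the hyaluronan-binding proteoglycan versican, was at 18.9, 17.1 and 18.2 TPM in control and 0.1 TPM or less in Runx1KO libraries. The rises were smaller in level, with Npnt, a ligand of integrin alpha-8 in the kidney, from 4.1 to 23.9 TPM (2.29) and Mfap5 from 0.8 to 5.27 TPM (1.82). Collagens gave 8 lower and 3 higher of 20 tested. Col6a2 was at 113.7, 108.6 and 113.7 TPM in control and 2.9, 2.8 and 2.7 TPM in Runx1KO libraries (log2 fold change -4.89, SE 0.041, adjusted p = 1.64e-09) and Col6a1, its partner in the same heterotrimer, was at 324.2, 332.7 and 334.5 TPM in control and 32.4, 31.8 and 31.8 TPM in Runx1KO libraries (log2 fold change -3.33, SE 0.026, adjusted p = 1.31e-09). The fibril-associated Col12a1 went from 46.5 to 2.83 TPM (-3.63) and the fibrillar Col5a2 from 149 to 14 TPM (-3.32). Col4a3, a chain of basement membrane collagen, was at 1.4, 1 and 1.1 TPM in control and 32.5, 32.5 and 31.7 TPM in Runx1KO libraries (log2 fold change 3.94, SE 0.076, adjusted p = 2.85e-08) and Col4a4, its neighbour and partner, rose from 1.73 to 19.5 TPM (2.91), while the other 4 type IV chains were not called. Col1a1, at a mean of 2.03 to 1.97 TPM (-0.03), was low in both groups.

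Laminin and integrin chains of hemidesmosomes, the anchors of epithelia to the basement membrane, were among the rises. Itgb4 was at 0.6, 0.5 and 0.5 TPM in control and 64.3, 60 and 61.3 TPM in Runx1KO libraries (log2 fold change 5.36, SE 0.054, adjusted p = 2.71e-09), and Lamb3, a chain of laminin-332, was at 1.9, 1.9 and 1.7 TPM in control and 101.4, 98.8 and 97.9 TPM in Runx1KO libraries (log2 fold change 5.15, SE 0.046, adjusted p = 2.06e-09). Lama3 rose from 2.73 to 22.1 TPM (2.63) and Itga3, a laminin receptor chain, from 84.6 to 264 TPM (1.63). Itga9, a tenascin-binding chain, was at 17, 15.4 and 17.7 TPM in control and 0.1, 0.1 and 0.2 TPM in Runx1KO libraries (log2 fold change -3.96, SE 0.078, adjusted p = 3.24e-08) and Itgb7 went from 9.23 to 1.6 TPM (-2.01). Over laminins and integrins 6 of 23 tested genes rose and 2 fell, a list taken by symbol that also holds Itgb1bp1 and Itgb3bp, which are not integrins. Extracellular proteases and their inhibitors gave 11 lower and 10 higher of 39. Serine proteases were mostly higher, 7 of 11, with Prss35 at 0.5, 0.8 and 0.8 TPM in control and 85.4, 91.8 and 73.2 TPM in Runx1KO libraries (log2 fold change 5.63, SE 0.11, adjusted p = 2.72e-08) and the membrane protease gene Hpn listed at 0 in all control libraries and at 10, 9.4 and 9.8 TPM in Runx1KO libraries. Of 7 tested Adamts proteases 4 fell and 1 rose. Serpinf1, encoding the antiangiogenic factor PEDF, was at 24.4, 25.4 and 23.8 TPM in control and 0.6, 1.3 and 1.5 TPM in Runx1KO libraries (log2 fold change -3.61, SE 0.16, adjusted p = 1.53e-06), Spint2, an inhibitor of membrane serine proteases, was at 19.3, 18.6 and 16.4 TPM in control and 158, 149 and 146.2 TPM in Runx1KO libraries (log2 fold change 3.0, SE 0.063, adjusted p = 4.28e-08) and Serpinb5 went from 0.0667 to 14.2 TPM (3.84).

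The cytoskeleton had changes in single genes more than in the whole. Over contractile and actin genes 9 of 51 rose and 5 fell. Apart from Tmsb4x, Acta2, the smooth muscle actin, fell from 7.13 to 0.167 TPM (-2.80), Des, encoding desmin, from 4.43 to 1.2 TPM (-1.30, and -0.96 in the 6-library table, where the call was lost), and Cfl2, the muscle cofilin, was at 199.7, 186.1 and 194.1 TPM in control and 79.7, 83.2 and 79.9 TPM in Runx1KO libraries (log2 fold change -1.25, SE 0.035, adjusted p = 1.74e-07). Myh14 rose from 0.267 to 12.3 TPM (3.39) and Eps8l1 from 0.167 to 14.6 TPM (3.74). Among 11 tested S100 calcium-binding proteins S100a4 fell, at 1274.2, 1364.3 and 1275.3 TPM in control and 354.8, 354.5 and 354.4 TPM in Runx1KO libraries (log2 fold change -1.88, SE 0.031, adjusted p = 1.74e-08), and 4 rose. S100a14 was at 0.1, 0.2 and 0.1 TPM in control and 54.2, 51.2 and 50.9 TPM in Runx1KO libraries (log2 fold change 5.55, SE 0.060, adjusted p = 3.55e-09), and S100a1 went from 1.07 to 52.7 TPM (4.69). ZebDKO libraries held 0.8, 1.1 and 1.2 TPM of S100a14. Of 11 septins only Sept3 and Sept4 rose, and none of 18 tubulins was called. Among small GTPases and their regulators 10 of 81 rose and 3 fell, with Arhgef16 at 10.5, 10.2 and 11.8 TPM in control and 111, 105.5 and 107.6 TPM in Runx1KO libraries (log2 fold change 3.21, SE 0.056, adjusted p = 2.03e-08) and the Rac and Cdc42 effector kinase Pak3 from 10.2 to 0.1 TPM (-3.35).

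Innate immune genes split by kind. Of 14 tested complement genes 5 fell and 1 rose, with a median of -0.60. Masp1, a protease of the lectin pathway, was at 27.4, 28.3 and 27.9 TPM in control and 0.3, 0.2 and 0.2 TPM in Runx1KO libraries (log2 fold change -4.55, SE 0.060, adjusted p = 7.27e-09), and C1ra, a protease of the classical pathway, was at 22.2, 19 and 21 TPM in control and 1.7, 1.5 and 2 TPM in Runx1KO libraries (log2 fold change -2.99, SE 0.089, adjusted p = 2.14e-07). The inhibitor gene Serping1 went from 10.5 to 0.3 TPM (-3.14). Clu, a chaperone that also blocks the terminal complex, was the gene that rose, at 37.1, 34.1 and 41.2 TPM in control and 125.7, 130.4 and 128.1 TPM in Runx1KO libraries (log2 fold change 1.75, SE 0.065, adjusted p = 6.12e-07). Chemokines and cytokines with their receptors gave 16 lower and 7 higher of 55, and 7 of 14 chemokines fell. Cxcl5 was at 19.3, 16.9 and 23.7 TPM in control and 0, 0.1 and 0.3 TPM in Runx1KO libraries (log2 fold change -4.21, SE 0.14, adjusted p = 4.23e-07), and Cxcl10 was at 137.8, 121.2 and 154 TPM in control and 22.2, 22.3 and 23.3 TPM in Runx1KO libraries (log2 fold change -2.55, SE 0.082, adjusted p = 3.06e-07), with ZebDKO libraries at 366, 336.7 and 316.5 TPM (Runx1KO minus ZebDKO log2 fold change -3.85, SE 0.054, adjusted p = 1.40e-08). The death receptor gene Fas fell from 19.6 to 1.43 TPM (-3.08) and Osmr, the oncostatin M receptor, from 23.8 to 3.77 TPM (-2.38). Ifnlr1, the receptor of type III interferons, was at 0.2, 0.4 and 0.4 TPM in control and 16, 15.4 and 17.4 TPM in Runx1KO libraries (log2 fold change 3.70, SE 0.088, adjusted p = 7.69e-08), and Csf3 rose from 1.43 to 12.1 TPM (2.44).

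Class I antigen presentation and interferon response genes were more often higher. Of 28 tested class I genes 7 rose and 2 fell, with a median of 0.43. The rises lay mostly in the heavy and light chains, where 5 of 14 rose and 1 fell (median 0.92). Of 12 genes of peptide supply and loading only 1 rose and none fell (median 0.01). H2-K1 was at 37.2, 42.3 and 43.3 TPM in control and 138.3, 132 and 138.4 TPM in Runx1KO libraries (log2 fold change 1.71, SE 0.059, adjusted p = 4.20e-07) and H2-T23 at 23.8, 25.6 and 24.9 TPM in control and 66.6, 64.8 and 61 TPM in Runx1KO libraries (log2 fold change 1.34, SE 0.045, adjusted p = 3.99e-07), heavy chains whose reads can be shared with near-identical copies. Nlrc5, the transactivator of class I genes, rose from 0.3 to 4.43 TPM (2.07) and the immunoproteasome subunit Psmb9 from 2.9 to 11.6 TPM (1.69). Irf1, an interferon-induced factor, fell, at 96.2, 95 and 106.8 TPM in control and 43.6, 39.6 and 48.5 TPM in Runx1KO libraries (log2 fold change -1.16, SE 0.079, adjusted p = 1.35e-05). ZebDKO libraries held 455.9, 422.1 and 418.2 TPM of Irf1 and 283.4, 273.3 and 277 TPM of H2-K1. Interferon response genes gave 11 higher and 3 lower of 54, and 10 of the 11 were effectors. The oligoadenylate synthetase genes Oas1a and Oas1g, close copies of each other, went from means of 0.267 to 10.1 TPM (3.13) and 0.0667 to 3.5 TPM (2.08), and Usp18, which removes ISG15, from 0.467 to 8.5 TPM (2.70). Ifitm3, a membrane block to virus entry, was the most abundant that fell, at 539.5, 519.6 and 531.3 TPM in control and 121, 131.2 and 123.7 TPM in Runx1KO libraries (log2 fold change -2.07, SE 0.035, adjusted p = 1.92e-08). Ifngr1, a chain of the interferon-gamma receptor, fell from 171 to 61.9 TPM (-1.45) and the sensor Tlr2 from 63.3 to 23.2 TPM (-1.41).

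Genes of the blood lineage were among the rises. Spi1, the Ets factor PU.1 that directs myeloid and B cells, was at 0, 0 and 0.1 TPM in control and 22.6, 26.4 and 26.8 TPM in Runx1KO libraries (log2 fold change 4.67, SE 0.086, adjusted p = 2.49e-08), and Laptm5, a lysosomal protein of blood cells, was at 0.2, 0.2 and 0.2 TPM in control and 21.8, 19.3 and 15.5 TPM in Runx1KO libraries (log2 fold change 4.04, SE 0.12, adjusted p = 2.07e-07). Cd74, the invariant chain of class II molecules, was at 0.5, 0.7 and 0.3 TPM in control and 8.5, 7.5 and 7 TPM in Runx1KO libraries (log2 fold change 2.54, SE 0.12, adjusted p = 2.12e-06). Over the list of 14 blood and immune markers 7 were tested, of which 4 rose (these 3 and Csf1r) and Hba-a1 fell, from 5.97 to 1.03 TPM (-1.77). All 4 that rose passed the filter only through the Runx1KO libraries. The summed level of the 14 was 134.6 to 136.0 TPM in control and 201.6 to 209.0 TPM in Runx1KO libraries, most of it from Cd14 in both groups. The defining leukocyte markers Ptprc, Adgre1 and Tyrobp were listed at 0 in all 6 libraries, and Cd3e and Itgam stayed at or below 0.1 TPM. The other Ets factors that rose were Elf3, an epithelial factor, at 30.8, 30 and 35.3 TPM in control and 120.8, 118.9 and 123.4 TPM in Runx1KO libraries (log2 fold change 1.89, SE 0.061, adjusted p = 3.09e-07), Ets2 and Ehf, making 4 of 18 with none lower. The call of Ehf was lost under quantile normalization, at 0.99, and in the 6-library table, at 0.85. Ets2 lies on chromosome 16, and with the median of its neighbours taken off its difference was 0.87.

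Markers of other cell types were few. The 12 endothelial markers summed to 10.9 to 14.5 TPM in control and 7.4 to 7.7 TPM in Runx1KO libraries, the 1 called marker being Cdh5, whose fall of -1.14 shrank to -0.85 in the 6-library table, with Kdr, Emcn, Erg and Robo4 listed at 0. The 12 muscle markers summed to 54.5 to 61.0 TPM and 2.8 to 3.3 TPM, nearly all of it Nkx2-5 in control, and Myog, Myf6, Pax7, Myh1, Myh6, Tnnt3 and Actn2 were listed at 0. The 11 markers of neurons and glia summed to 78.0 to 86.9 TPM and 58.9 to 65.3 TPM, mostly Tubb3, and the 10 of fat and cartilage to 162.7 to 187.2 TPM and 217.6 to 226.9 TPM, nearly all Sox9. Among genes of kidney segments 9 of 22 rose and 2 fell, and 5 of 6 ureteric bud genes rose, including Krt8, Krt18 and Wnt7b. These 6 were the tested ones of 10 listed, and Krt18 passed the filter through the Runx1KO libraries alone. The podocyte actin-binding gene Synpo fell, at 37, 34.3 and 41.7 TPM in control and 9.9, 9.1 and 11.5 TPM in Runx1KO libraries (log2 fold change -1.79, SE 0.098, adjusted p = 4.51e-06). In bulk RNA, fewer cells of a kind and less RNA per cell cannot be told apart.

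Keratins and junction genes had the largest share of rises of any list, 21 of 36 tested with 2 lower and a median of 1.59, and 9 of 11 keratins rose. Only 36 of the 107 listed genes passed the filter. Those under 1 TPM in control, such as Krt19, passed it through the Runx1KO libraries alone, so the share of rises is set in part by the filter. Krt19 was at 0.6, 0.6 and 0.8 TPM in control and 87, 87.5 and 86.6 TPM in Runx1KO libraries (log2 fold change 5.73, SE 0.059, adjusted p = 2.80e-09) and Perp, a desmosome gene that p53 family members induce, was at 12, 10.4 and 11.8 TPM in control and 176.5, 167.3 and 166.5 TPM in Runx1KO libraries (log2 fold change 3.79, SE 0.057, adjusted p = 1.18e-08). Claudins went both ways. Cldn9 was at 0.3, 0.5 and 0.6 TPM in control and 70.6, 74 and 66.8 TPM in Runx1KO libraries (log2 fold change 5.61, SE 0.086, adjusted p = 1.31e-08), whereas Cldn2, a pore-forming claudin, fell from 10.1 to 2.6 TPM (-1.63) and Cldn1 from 42 to 19.8 TPM (-1.05), a call just past the limit that median-ratio scaling took to -0.99. Krt19 and Cldn9 were far lower in ZebDKO cells, at 5, 4.4 and 4.2 TPM (Runx1KO minus ZebDKO log2 fold change 3.99, SE 0.058, adjusted p = 1.41e-08) and 4, 4.6 and 3.2 TPM (log2 fold change 3.87, SE 0.10, adjusted p = 1.14e-07).

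Protocadherins, cell adhesion proteins of neural and other tissues, had falls and no rises. Of 18 tested protocadherins 10 were called lower, and the median of -1.15 was the lowest of all lists. Of the 12 tested genes of the Pcdhb cluster on chromosome 18, 8 fell, and they sat in a row without another tested gene between them. Pcdhb5 was at 15.2, 15.2 and 14.8 TPM in control and 0.6, 0.4 and 0.8 TPM in Runx1KO libraries (log2 fold change -3.34, SE 0.097, adjusted p = 2.05e-07) and Pcdhb14 at 13.3, 12.6 and 12.6 TPM in control and 1.1, 0.6 and 0.8 TPM in Runx1KO libraries (log2 fold change -2.92, SE 0.10, adjusted p = 5.12e-07). Pcdhb22, at the far side of the cluster, was at 2.6, 2.4 and 2.8 TPM in control and 5.5, 5.3 and 5.3 TPM in Runx1KO libraries (0.82) and was not called. Members of the cluster are close in sequence, so reads may be shared among them. Axon guidance genes gave 7 lower and 5 higher of 42. Sema5a was at 36.6, 32.6 and 34.7 TPM in control and 0.4, 0.4 and 0.5 TPM in Runx1KO libraries (log2 fold change -4.63, SE 0.065, adjusted p = 9.31e-09) and the netrin gene Ntn1 at 80.5, 75.5 and 80 TPM in control and 8.9, 7.6 and 9.3 TPM in Runx1KO libraries (log2 fold change -3.06, SE 0.071, adjusted p = 7.12e-08), while the ephrin receptor gene Epha1 was at 1.3, 1.3 and 1.4 TPM in control and 42.6, 39 and 43.3 TPM in Runx1KO libraries (log2 fold change 4.19, SE 0.057, adjusted p = 8.35e-09) and Sema3c rose from 49.8 to 142 TPM (1.49).

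**Figure D3:**
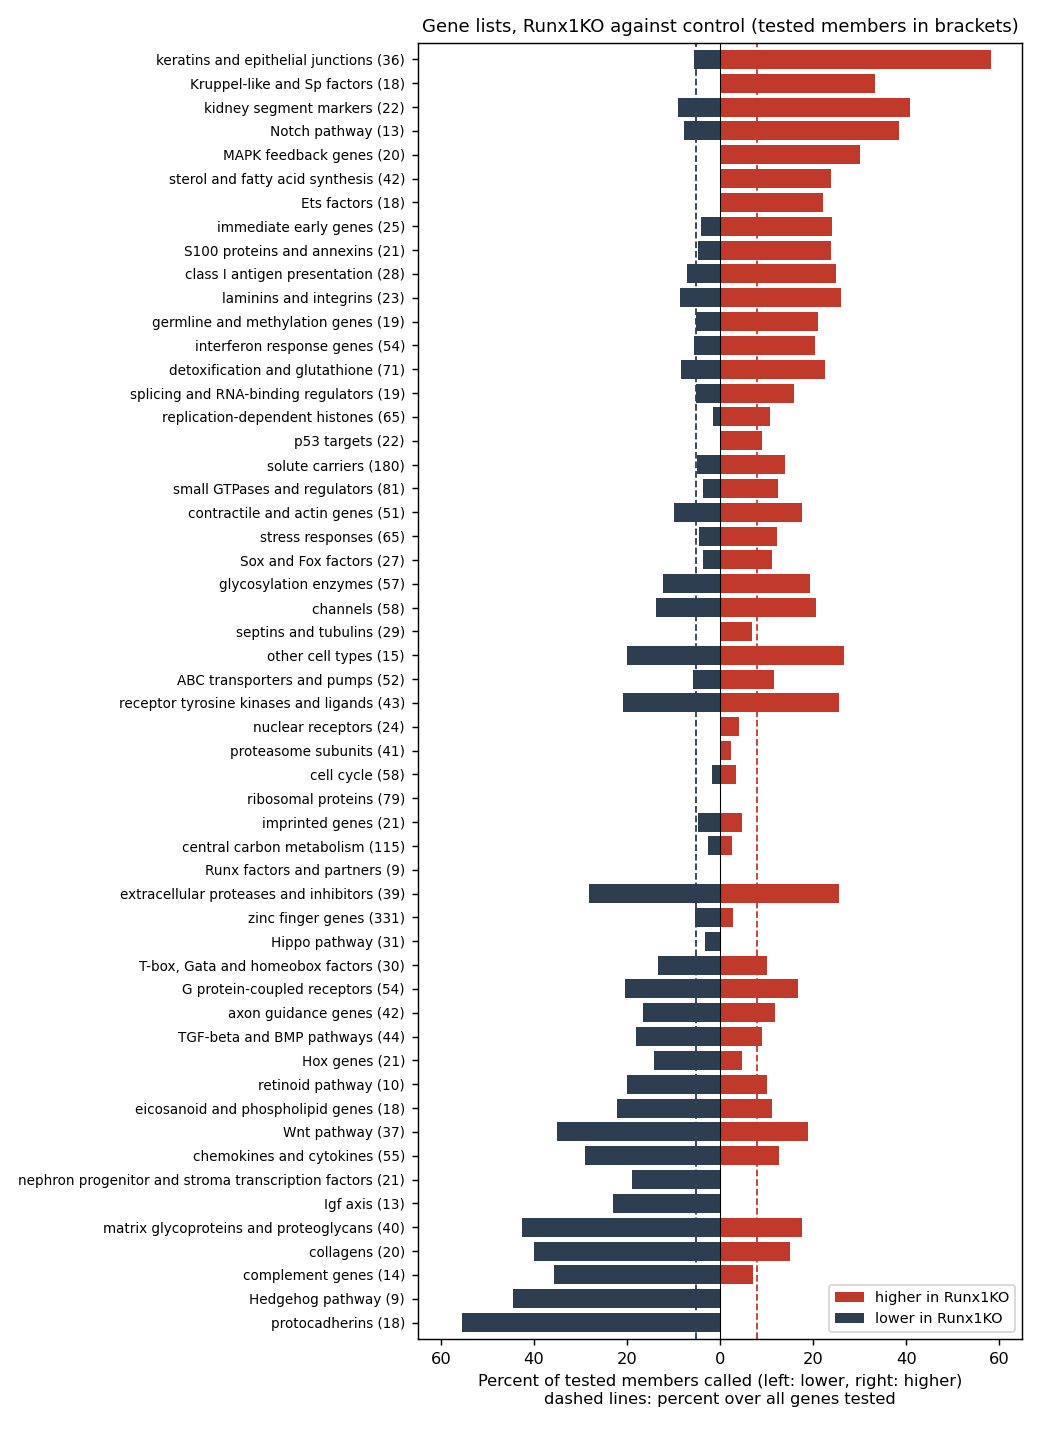
Percent of the tested members of each gene list that were called higher (right, red) or lower (left, dark blue) in Runx1KO against control cells, for lists with at least 9 tested members, whose number stands in brackets. Dashed lines mark the shares over all tested genes, 7.91% higher and 5.10% lower, and lists of core functions such as ribosomal proteins, cell cycle and central carbon metabolism stay inside both lines.

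Of 42 tested genes of sterol and fatty acid synthesis 10 rose and none fell, with a median of 0.46. The shift lay in sterol synthesis, where 7 of 23 rose, the median was 0.59 and 22 had a positive difference. In fatty acid synthesis 3 of 19 rose (15.8%, beside 13.0% over all genes), the median was 0.07 and 7 had a negative difference. Insig1, the sterol sensor that is itself a target of Srebp factors, was at 206.2, 209.7 and 227.5 TPM in control and 557.1, 550.3 and 584 TPM in Runx1KO libraries (log2 fold change 1.39, SE 0.043, adjusted p = 2.76e-07). Tm7sf2, a sterol reductase, went from 10.5 to 27.7 TPM (1.32) and Acacb, an acetyl-CoA carboxylase, from 0.333 to 4.67 TPM (2.08). Over the 42 genes 34 had a positive difference, against 5733 of 13067 over all genes. The genes of the Srebp factors themselves, Srebf1 and Srebf2, were not called.

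Of 21 tested genes of glucose uptake and glycolysis 3 rose and 2 fell (23.8%, beside 13.0% over all genes). The glucose transporter gene Slc2a1, encoding GLUT1, was at 137.2, 134.8 and 132.9 TPM in control and 570.1, 553.9 and 594.8 TPM in Runx1KO libraries (log2 fold change 2.08, SE 0.032, adjusted p = 1.31e-08), and Slc2a3 was among the largest rises. Ldhb, the lactate dehydrogenase subunit that favours lactate use, was at 43.7, 47 and 45 TPM in control and 2, 1.9 and 2.3 TPM in Runx1KO libraries (log2 fold change -3.92, SE 0.063, adjusted p = 1.57e-08), and Eno2 and Aldoc changed from means of 3.07 to 0.133 TPM (-1.84) and 0.5 to 8.5 TPM (2.67). Over the list of central carbon metabolism 6 of 115 genes were called, these 5 among them, with none of 21 in the TCA cycle and 1 of 73 in oxidative phosphorylation, Cox6a2, a muscle isoform. Genes of the hypoxia response were split, with Car9 at 0.2, 0.2 and 0.2 TPM in control and 64.9, 59.4 and 62 TPM in Runx1KO libraries and Car12 from 2.87 to 23.8 TPM (2.68) among the rises and Ndrg1 at 526.4, 521.3 and 545 TPM in control and 193.7, 187.3 and 203.1 TPM in Runx1KO libraries (log2 fold change -1.44, SE 0.036, adjusted p = 9.33e-08) and Egln3 from 168 to 64 TPM (-1.38) among the falls.

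Of 180 tested solute carriers 25 rose and 9 fell (18.9% called, beside 13.0% over all genes). Slc14a1, the urea transporter, was at 86.8, 82.8 and 88.4 TPM in control and 5.7, 5.8 and 6.2 TPM in Runx1KO libraries (log2 fold change -3.66, SE 0.045, adjusted p = 5.99e-09), and Slc1a3, a glutamate transporter, was at 428.2, 429.5 and 443.3 TPM in control and 95.8, 97.3 and 98.5 TPM in Runx1KO libraries (log2 fold change -2.15, SE 0.025, adjusted p = 4.91e-09). Slc23a3 and Slc45a3 rose from means of 0.8 to 49 TPM (4.80) and 0.1 to 28.8 TPM (4.77). Abcb1b, a multidrug efflux pump, was at 19.4, 18.9 and 20.6 TPM in control and was listed at 0 in all Runx1KO libraries, and Abca1, the cholesterol exporter, fell from 6.27 to 0.1 TPM (-2.72), while Abcc1, another drug exporter, was at 80.6, 79.5 and 79 TPM in control and 195.3, 190.8 and 187 TPM in Runx1KO libraries (log2 fold change 1.25, SE 0.027, adjusted p = 4.75e-08) and lies on chromosome 16, where taking off the median of its neighbours left 0.93. Ion channels gave 12 higher and 8 lower of 58. Trpv4, an osmosensitive cation channel, was at 13.7, 14.4 and 14.2 TPM in control and 122.1, 119.4 and 124.9 TPM in Runx1KO libraries (log2 fold change 3.03, SE 0.034, adjusted p = 4.42e-09) and the potassium channel gene Kcnk4 at 5.8, 3.9 and 5.8 TPM in control and 107.9, 105.2 and 107.1 TPM in Runx1KO libraries (log2 fold change 4.14, SE 0.12, adjusted p = 2.29e-07), whereas the pacemaker channel gene Hcn2 fell from 8.47 to 0.0667 TPM (-3.15). Of 5 tested connexins and pannexins 3 rose.

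Detoxification genes were more often higher, 16 of 71 with 6 lower. Nqo1, a quinone reductase under control of Nrf2, was at 20.9, 21.7 and 21.7 TPM in control and 221.8, 197.2 and 237.9 TPM in Runx1KO libraries (log2 fold change 3.29, SE 0.066, adjusted p = 3.55e-08), with ZebDKO libraries at 27.8, 27.2 and 24.3 TPM. Glutathione transferases and peroxidases made up 9 of the 16 rises, with Gstm6 from 0.9 to 12.8 TPM (2.89), a member of a family of close copies. Of 18 Nrf2 targets, however, 2 rose and 1 fell and the median was -0.03. Cyp1b1 fell from 8.93 to 0.133 TPM (-3.13). In the prostaglandin pathway Ptgs2, the inducible cyclooxygenase, was at 104.4, 94 and 98.4 TPM in control and 3.4, 3.6 and 4.3 TPM in Runx1KO libraries (log2 fold change -4.39, SE 0.077, adjusted p = 2.12e-08), Pla2g4a, which frees its substrate, was at 17.6, 17.7 and 18.2 TPM in control and 1, 0.8 and 0.8 TPM in Runx1KO libraries (log2 fold change -3.34, SE 0.065, adjusted p = 3.08e-08), and the receptor gene Ptger4 rose from 2.4 to 18.7 TPM (2.53).

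Enzymes that build surface glycans changed in both directions. Of 19 tested enzymes of mucin-type glycosylation 5 rose and none fell, with B3gnt3 at 0.5, 0.5 and 0.2 TPM in control and 113.7, 107.9 and 114 TPM in Runx1KO libraries (log2 fold change 6.34, SE 0.093, adjusted p = 1.06e-08) and B4galnt3 at 2.5, 2 and 1.4 TPM in control and 79.4, 74.5 and 72 TPM in Runx1KO libraries (log2 fold change 4.70, SE 0.13, adjusted p = 1.62e-07). Of 21 enzymes of heparan and chondroitin sulphate 4 fell and 1 rose. Sulf2, which trims 6-O sulphates from heparan sulphate outside the cell, was at 53.5, 53.4 and 51.9 TPM in control and 0.4, 0.3 and 0.4 TPM in Runx1KO libraries (log2 fold change -5.30, SE 0.053, adjusted p = 2.71e-09). Of 17 fucosyl- and sialyltransferases 5 rose and 3 fell. Fut1, a fucosyltransferase, was listed at 0 in all control libraries and was at 4.1, 4.4 and 4.3 TPM in Runx1KO libraries. St6gal1, a sialyltransferase, fell from 11.4 to 0.833 TPM (-2.76), and St8sia2, which makes polysialic acid, was at 9.2, 6.7 and 8.4 TPM in control and at or near 0 in Runx1KO libraries.

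Heat shock genes were among the stress genes called higher. Hspa1b was at 21.5, 24.4 and 22.1 TPM in control and 146.6, 152.2 and 79.2 TPM in Runx1KO libraries (log2 fold change 2.37, SE 0.24, adjusted p = 9.81e-05), with Runx1KO library 3 below the other two, and Hspa1a, its near-identical copy, went from 5.53 to 31.7 TPM (2.26), and 4 of 15 heat shock genes rose with none lower, while none of 15 genes of the unfolded protein response was called. Atf5, a factor of the amino acid response, was at 135.4, 126.6 and 138.1 TPM in control and 33.3, 34.6 and 33.4 TPM in Runx1KO libraries (log2 fold change -1.95, SE 0.040, adjusted p = 3.91e-08). Germline genes gave 4 higher and 1 lower of 10, with Tex101 at 27.7, 24.3 and 33.3 TPM in control and 191.2, 196.5 and 201.8 TPM in Runx1KO libraries (log2 fold change 2.76, SE 0.10, adjusted p = 6.07e-07) and Xlr3a, one of several close copies on the X chromosome, from 4 to 60.8 TPM (3.63). The imprinted gene Phlda2, a placental growth regulator, was at 0.4, 0 and 0.3 TPM in control and 46.7, 43.4 and 45.2 TPM in Runx1KO libraries (log2 fold change 5.24, SE 0.12, adjusted p = 7.67e-08) and Zim1 was at 24.5, 20.7 and 22.7 TPM in control and 3.8, 4 and 3.5 TPM in Runx1KO libraries (log2 fold change -2.31, SE 0.074, adjusted p = 3.12e-07), the 2 called of 21. Foxj1, the master factor of motile cilia, was at 2.2, 2.9 and 2.4 TPM in control and 63.4, 66 and 59.4 TPM in Runx1KO libraries (log2 fold change 4.19, SE 0.081, adjusted p = 3.03e-08), and Foxf1, a mesenchymal factor, was at 115, 110.5 and 107.6 TPM in control and 28, 25.2 and 25.3 TPM in Runx1KO libraries (log2 fold change -2.05, SE 0.050, adjusted p = 8.43e-08). Esrp1, which directs epithelial splicing, was listed at 0 in all control libraries and at 1, 1.2 and 1.3 TPM in Runx1KO libraries.

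Several core functions had few called genes or none. None of 79 tested ribosomal protein genes was called by limma (log2 fold changes of -0.496 to 0.359, median -0.10), and the median of the 41 proteasome subunits was -0.17, with Psmb9 the 1 called. Of 58 cell cycle genes 3 were called. Ccnd2 was at 14.4, 14.6 and 16 TPM in control and 64.3, 59.9 and 60.3 TPM in Runx1KO libraries (log2 fold change 1.97, SE 0.051, adjusted p = 1.22e-07), Cdkn2b, an inhibitor of Cdk4, rose from 33.5 to 72.4 TPM (1.09) and E2f2 fell from 14.4 to 6.23 TPM (-1.09), or -0.99 with the median of its neighbours taken off. No mitosis gene of 21 was called by limma, and 2 of 22 p53 targets were. Of 9 DNA methylation genes none was called. Of 331 tested Zfp genes 18 fell and 9 rose (8.16% called, below the 13.0% over all genes). Genes named Mir gave 35 higher and 16 lower of 367, but poly(A) libraries do not measure mature microRNAs and short genes take high TPM from few reads, so these are not read as microRNA levels.

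Differences also followed position on the chromosomes. By symbol, 11162 of the tested genes had a position in GENCODE vM1 on mm9, and 43.4% of them had a positive difference. On chromosome 16, which carries Runx1, the median log2 fold change over 331 genes was 0.32, and it was 0.32, 0.30 and 0.33 in the 3 Runx1KO libraries against -0.017 to 0.012 in control libraries, with 78.9% of genes above 0. On chromosome 11 the shift began part of the way along. The 383 genes from position 90504779 to the end had a median of 0.43 (86.4% above 0), whereas the 575 genes before them had -0.04. The last 96 genes of chromosome 12 had a median of 0.65 (92.7% above 0) and the 275 before them 0.18. Downward shifts covered chromosome 3 from position 87775000 on (394 genes, median -0.39, 21.3% above 0), all of chromosome 19 (383 genes, -0.21), the end of chromosome 5 (93 genes, -0.36) and the end of the X chromosome (63 genes, -0.63), where Tmsb4x lies. These stretches were marked out after the values were seen. ZebDKO libraries, measured against the same controls, had medians of -0.197 to -0.169 over all positioned genes, the level against which their stretches are read. They had -0.078 to -0.011 on chromosome 16 and -0.088 to -0.059 on chromosome 19. In the distal part of chromosome 11 they had -0.008 to 0.016, above the -0.165 to -0.132 of the part before it. The distal part of chromosome 12 had -0.261 to -0.204, above the -0.322 to -0.262 before it. The distal part of chromosome 3 had -0.245 to -0.218, above the -0.374 to -0.304 before it. The end of chromosome 5 had -0.06 to -0.01, above the -0.194 to -0.168 before it. At the end of the X chromosome they had -0.543 to -0.506, below the -0.342 to -0.274 of the rest of that chromosome. The study describes the karyotype of mK4 cells as normal and gives none for the knockout clones. DNA copy number was not measured in the data used here, so its part in the shifts was not tested. With the median of each block of 25 neighbours taken off, 1009 genes were higher and 596 lower, of which 951 and 577 were among those called without the correction.

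**Figure D4:**
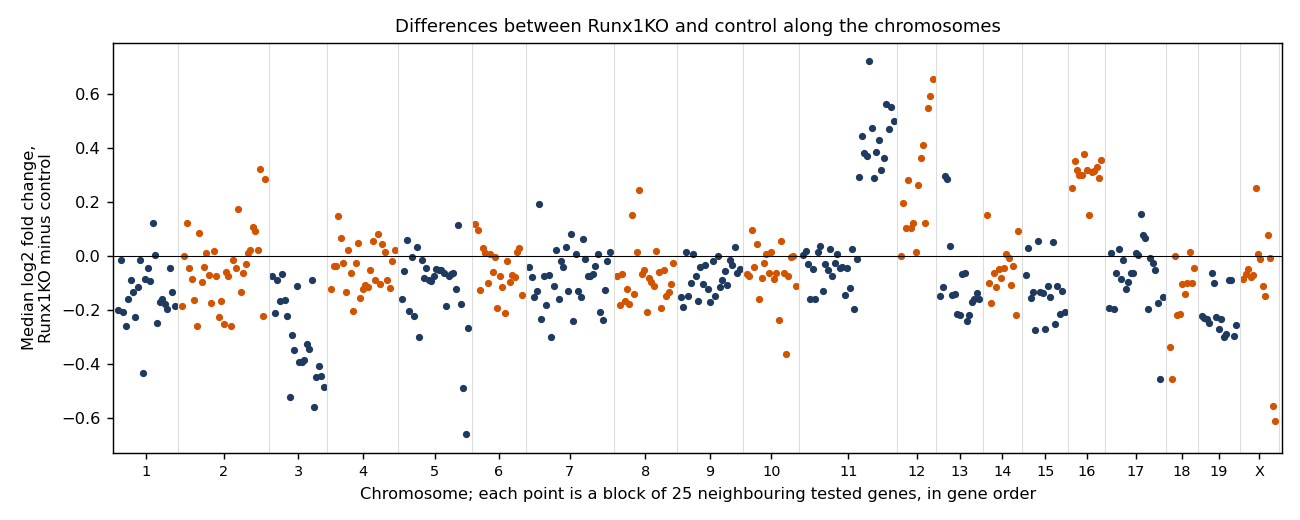
Median log2 fold change, Runx1KO minus control, of each block of 25 neighbouring tested genes (y axis, log2(TPM + 1) scale), in gene order along each chromosome (x axis, colours alternate by chromosome). Blocks of chromosome 16, of distal 11 and of distal 12 lie above 0, and those of most of chromosome 3, of 19 and of the ends of 5 and X lie below it.

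On a finer scale, some called genes lay next to each other. Of 11142 pairs of adjacent tested genes 183 had both higher, 93 both lower and 74 had 1 of each, and 45 runs of at least 3 adjacent genes called in one direction held 163 genes. The longest were the 8 Pcdhb genes and 8 Ugt1a genes, all lower. Transcripts of the Ugt1a genes share exons and so reads. A run of 7 higher genes held Psca, Slurp1, Lynx1, Ly6e, Ly6a, Ly6c1 and Ly6g, members of the Ly6 family of GPI-anchored and secreted proteins. On chromosome 13 a run of 5 higher genes began with Mrps30, Nnt and Paip1, the last at 38.8, 40.4 and 40.8 TPM in control and 396.6, 398.8 and 413.3 TPM in Runx1KO libraries (log2 fold change 3.30, SE 0.031, adjusted p = 2.26e-09). Emb, which fell to near 0, lies on the same chromosome, before the start of that run. Krt7, Krt4, Krt8 and Krt18 formed a run of 4 higher genes. Genes of these runs were named after their values were seen.

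Accessible regions differed by the direction of the gene. Of the 587 lower genes with a position, 68.7% had a region listed as less accessible in Runx1KO cells within 50 kb of their start, against 28.1% of the 881 higher genes and 35.7% of all. More accessible regions lay near 82.0% of higher genes, 29.5% of lower genes and 49.9% of all. Within 10 kb, less accessible regions lay near 43.6% of lower, 6.47% of higher and 9.57% of all genes. More accessible regions lay within 10 kb of 58.7% of higher, 6.13% of lower and 16.9% of all genes. A Runx1 ChIP-seq peak of control cells lay within 50 kb of 48.2% of lower genes, 47.8% of higher genes and 55.2% of all, so neither group exceeded the share over all tested genes. The study assigned peaks to genes by another rule, the GREAT tool. It reported an enrichment over chance near genes that fell and a smaller one near genes that rose. With unlike rules, the shares here cannot be set beside those of the study. Runx1 peaks overlapping a less accessible region lay near 14.5% of lower genes, 4.09% of higher genes and 6.57% of all. The lists carry no replicate values, and these shares are a description without a test.

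**Figure D5:**
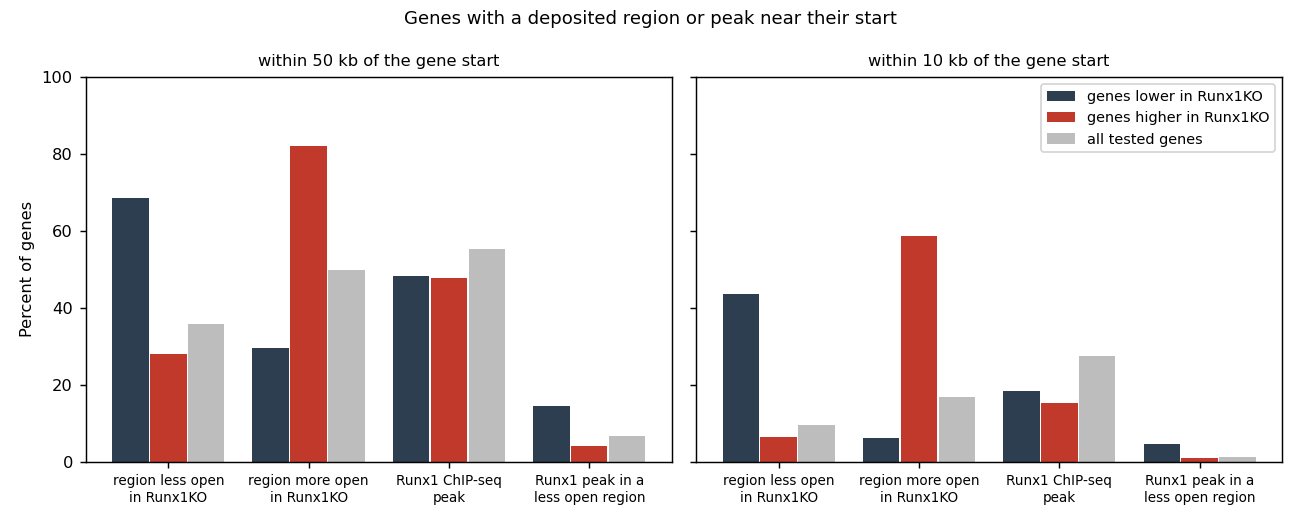
Percent of genes (y axis) with a deposited region or peak within 50 kb (left) or 10 kb (right) of their start, for genes lower in Runx1KO cells (dark blue), genes higher (red) and all tested genes (grey). Less accessible regions gather near lower genes and more accessible ones near higher genes at both distances, while Runx1 peaks do not exceed the share over all genes.

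Runx1KO and ZebDKO cells were also compared directly. The test covered 13071 genes. Runx1KO cells exceeded ZebDKO cells in 1203 of them (9.20%) and were below them in 862 (6.59%), which makes 2065 (15.8%). The median over all genes was 0.15, and with the libraries rescaled by median ratio the counts were 909 higher and 1058 lower, so the balance of directions depended on the scaling. Tmsb4x gave the largest difference (log2 fold change -9.20, SE 0.10, adjusted p = 8.48e-09). The histone genes Hist1h2ap, Hist1h2ao and Hist1h2ag followed, with 6.8, 8.2 and 10.1 TPM of Hist1h2ap in Runx1KO, 1846.2, 1775.6 and 1876.8 TPM in ZebDKO and 4.7, 5.5 and 6.1 TPM in control libraries. These mRNAs lack a poly(A) tail and their copies share reads, so their level depends on how the libraries were made, and the part of that in the difference was not tested. Emb (log2 fold change -6.14, SE 0.064, adjusted p = 7.91e-09) and Gxylt2 (log2 fold change -5.57, SE 0.098, adjusted p = 2.54e-08) completed the 6 largest in that direction. In the other direction, Prss35 (log2 fold change 4.78, SE 0.091, adjusted p = 3.23e-08), Lypd5, a member of the Ly6 family, S100a14, Mesp2, a factor of somite formation, Rhox2h, a homeobox gene of the X chromosome, and 3110039M20Rik were higher in Runx1KO cells, by 4.71 to 5.08. Lypd5 was at 60, 58.7 and 56.8 TPM in Runx1KO, 1, 0.9 and 0.6 TPM in ZebDKO and 0.5, 0.3 and 0.1 TPM in control libraries, and Mesp2 at 28.4, 29.6 and 28.7 TPM, 0.1, 0 and 0.2 TPM and 1.3, 0.5 and 0.4 TPM. For all 12 genes the libraries of the lines did not overlap, as for 81.7% of the genes tested.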

How the data were processed

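RNA-seq was analysed from 9 mK4 libraries, 3 per group, of which the 6 of control and Runx1KO cells were compared. The authors deposited TPM values per gene, without counts. The authors' processing notes and methods name FastQC, Trim Galore, STAR as the aligner, featureCounts 1.6.2, DESeq2 1.26.0, MACS2 and mm9. The table gives no read depth. Genes with at least 1 TPM in 3 or more of the 6 libraries were kept, and log2(TPM + 1) was fitted in limma 3.58.1 (R 4.3.3) using the trend option for the variance prior, with two-sided tests and Benjamini-Hochberg adjustment over all genes kept. The study ran a count model on counts. Genes past 2-fold at an adjusted p under 0.05 were called. The script was tested on simulated data.

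The authors also deposited ATAC-seq regions with a log2 change and a −log10 p-value, and ChIP-seq peaks with a fold enrichment ratio. Only the positions were used. Columns of the authors' own comparisons, holding fold changes and p-values, and the Runx2 peak lists were not used. Gene positions came from GENCODE vM1 on mm9 and promoters from RefSeq on GRCm38.p6, read with Python 3.11.15, pandas 2.3.3 and pysam 0.24.0.

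Named genes were the Runt genes and Cbfb, the 15 largest rises and 15 largest falls among called genes with a mean of at least 20 TPM in the higher group, up to 4 called genes per list and direction, uncalled members of roles described, and 6 genes per direction against ZebDKO. Wnt5a, Lef1, Axin2, Paip1, Tgfa and Hbegf were named after their values were seen. A few genes that the rule names are not reported here. The gene rule and the lists were chosen with earlier results of these data known. The replicate numbers did not pair libraries (r of deviations -0.053, 0.014 and 0.0018).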

Additional observations from a re-analysis of the deposited data

How the results depend on the processing

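No difference of a named gene changed sign under any alternative run. The balance of directions did turn, to 909 higher and 1058 lower against ZebDKO with median-ratio scaling and to 907 and 1000 with quantile normalization. At a limit of 1.3-fold the counts were 2413 higher and 2444 lower against control, and 4376 and 2404 against ZebDKO. A filter of 5 TPM left 442 lower against control and 566 lower against ZebDKO, with fewer genes tested. Leaving out each library in turn gave 1018 to 1041 higher and 660 to 681 lower genes against control, and 1175 to 1247 and 847 to 879 against ZebDKO. A replicate block, although the numbers do not pair the libraries, gave 1040 and 669 against control and 1207 and 864 against ZebDKO, and changed no call of a named gene. With a window of 10 kb in place of 50 kb, shares fell to 15.3% of higher and 18.4% of lower genes for Runx1 peaks. They fell to 6.47% and 43.6% for less accessible regions and to 58.7% and 6.13% for more accessible regions. For Runx1 peaks overlapping less accessible regions they fell to 0.908% and 4.60%. Pseudocounts of 0.1 and 0.5 TPM, no filter, other scalings, no trend and 1 fit over all 9 libraries kept the counts within 1.5 times. The 6-library table, whose values were made separately, gave 937 higher and 618 lower genes against control. Only 787 of the 1033 higher and 520 of the 666 lower genes were called there in the same direction, with 12374 genes tested. Of the named genes, 10 lost the call in that table and 271 gave the same result. With the block shift taken off, an alternative chosen after seeing the data, 13 named genes lost the call. The cause was not tested.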
